A study of Mus musculus with 14 samples.

Results

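Frizzled receptors are the cell surface receptors of the Wnt family of secreted growth factors, and Lrp5 and Lrp6 are the single-pass proteins that act beside them as co-receptors. A Wnt protein that binds a Frizzled and an Lrp together recruits Dishevelled and Axin to the membrane and stabilises β-catenin, which enters the nucleus and works with Tcf factors. Some Frizzleds also act without an Lrp in the planar polarity pathway, which aligns cells within the plane of an epithelium. In the mouse prostate, Wnt signalling is known to take part in budding of the fetal urogenital sinus and in the growth of adult progenitors.

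All 10 genes of the set were examined, the 8 Frizzleds Fzd1 to Fzd8 and the co-receptors Lrp5 and Lrp6. The platform annotation gave them 26 of the 45101 probe sets of the array and 10 of its 18194 genes with a probe set of their own. Of the 26 probe sets, 24 had a signal above 20 on at least 1 array and were tested. The remaining pair, 1 of Fzd3 and 1 of Fzd7, stayed below 20 on all 14 arrays. Each gene was read first on its probe set of highest mean log2 signal, and the other probe sets are given beside it. Signals are in the arbitrary units of the deposited table, so that values can be compared between arrays for 1 probe set but not between probe sets.

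The study set out to learn which pathways are active in fetal and adult cells that are enriched in prostate stem cells. Urogenital sinus epithelium (UGE, 3 arrays) was taken from 16-day-old C57BL/6 embryos as the fetal stem cell population. The adult cells came from the ducts nearest the urethra of normal male mice, which the labels give as C57BL aged 6 to 8 weeks and the study's methods as C57BL/6 at the lower of these ages, and were sorted by their surface level of Sca-1, a marker of adult prostate stem cells. Sca-1Hi cells (3 arrays) stained most strongly and are regarded as enriched in stem cells, Sca-1Lo cells (4 arrays) stained at medium to low levels and are regarded as transit-amplifying cells, and Sca-1Neg cells (4 arrays) had no Sca-1 and serve as the mature population that each of the others is set against. No animal carried a transgene or received a treatment. The sort used Sca-1 alone as far as the sources used here state, and how many animals stand behind an array is not given in them.

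Markers of cell types were read on the same arrays. The 5 epithelial markers summed to between 22390 and 30838 on UGE arrays, 16026 and 20905 on Sca-1Hi arrays, 14643 and 21575 on Sca-1Lo arrays and 6236 and 24823 on Sca-1Neg arrays. The 5 basal epithelial markers summed to between 21522 and 28004 on UGE arrays, 17357 and 26251 on Sca-1Hi arrays, 8576 and 26833 on Sca-1Lo arrays and 1663 and 7862 on Sca-1Neg arrays, and 4, 5 and 3 of them were called higher in UGE, Sca-1Hi and Sca-1Lo cells than in Sca-1Neg cells. The 4 luminal secretory markers read summed to at most 92.7 on UGE arrays, with Pbsn and Spink1 at or below 20 on all 3, and to at least 26239 on every adult array. The 9 endothelial markers summed to between 187 and 692 on UGE arrays, 11372 and 19782 on Sca-1Hi arrays, 5275 and 12156 on Sca-1Lo arrays and 1335 and 4260 on Sca-1Neg arrays, and 8 of the 9 were called higher in Sca-1Hi and in Sca-1Lo cells than in Sca-1Neg cells. The 9 leukocyte markers summed to between 478 and 709 on UGE arrays, 850.0 and 2319 on Sca-1Hi arrays, 2167 and 10437 on Sca-1Lo arrays and 6297 and 30847 on Sca-1Neg arrays. The single markers did not all follow the sums in UGE against Sca-1Hi cells. Their median log2 difference there was 1.47, with 1 called higher and 2 lower. Ptprc and Cx3cr1 stayed at or below 20 on every Sca-1Hi array, and Cx3cr1 on every Sca-1Lo array. The 8 smooth muscle markers summed to between 1417 and 3547 on UGE arrays, 8049 and 23757 on Sca-1Hi arrays, 13200 and 25553 on Sca-1Lo arrays and 26469 and 87744 on Sca-1Neg arrays. Since these are bulk samples, fewer cells of a type and less RNA per cell cannot be told apart. The adult arrays were also split by the study's own array numbers, found by matching the arrays, into 1 and 2 (early) and 3 to 5 (late). What the numbers stand for is not given in the sources used here, so early and late name their order and no known time. No label sets this cut. It was made with differences in marker levels known, so the marker sums below describe the split and do not test it. Sca-1Hi replicate 1 and replicates 1 and 2 of Sca-1Lo and Sca-1Neg are early. Any value of Sca-1Hi cells within the early arrays therefore rests on 1 array, which the fit assumes to vary like the other groups. The 7 fibroblast markers averaged 33555 on late and 5001 on early Sca-1Hi arrays, 48755 and 10453 on Sca-1Lo arrays, and 25065 and 10586 on Sca-1Neg arrays. The basal sums averaged 25357 on late and 17357 on early Sca-1Hi arrays, 26467 and 11579 on Sca-1Lo arrays, and 6006 and 1793 on Sca-1Neg arrays. The endothelial sums averaged 17099 and 11372, 11494 and 5443, and 2797 and 1630 in the same order. The leukocyte sums were lower on late arrays, at 874 and 2319, 2173 and 8429, and 9761 and 26537. The smooth muscle sums averaged 16129 and 8049, 19376 and 19004, and 57106 and 34248. In Sca-1Neg cells the epithelial and luminal sums were higher on late arrays, at 17161 and 8163, and 49928 and 29761. In Sca-1Hi and Sca-1Lo cells the epithelial sums were lower there, at 18465 and 20192, and 17818 and 18389. So were the luminal sums, at 31922 and 43591, and 34613 and 52264. Log2 ratios of 3′ to 5′ Gapdh probe sets, a sign of RNA integrity, ran from 1.83 to 2.38 on UGE, 3.07 to 3.48 on Sca-1Hi, 1.98 to 3.22 on Sca-1Lo and 1.66 to 2.75 on Sca-1Neg arrays. Those of Actb overlapped between all groups, at 1.54 to 2.09, 1.59 to 2.77, 1.72 to 2.27 and 1.17 to 2.11 in the same order.

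**Figure D1:**
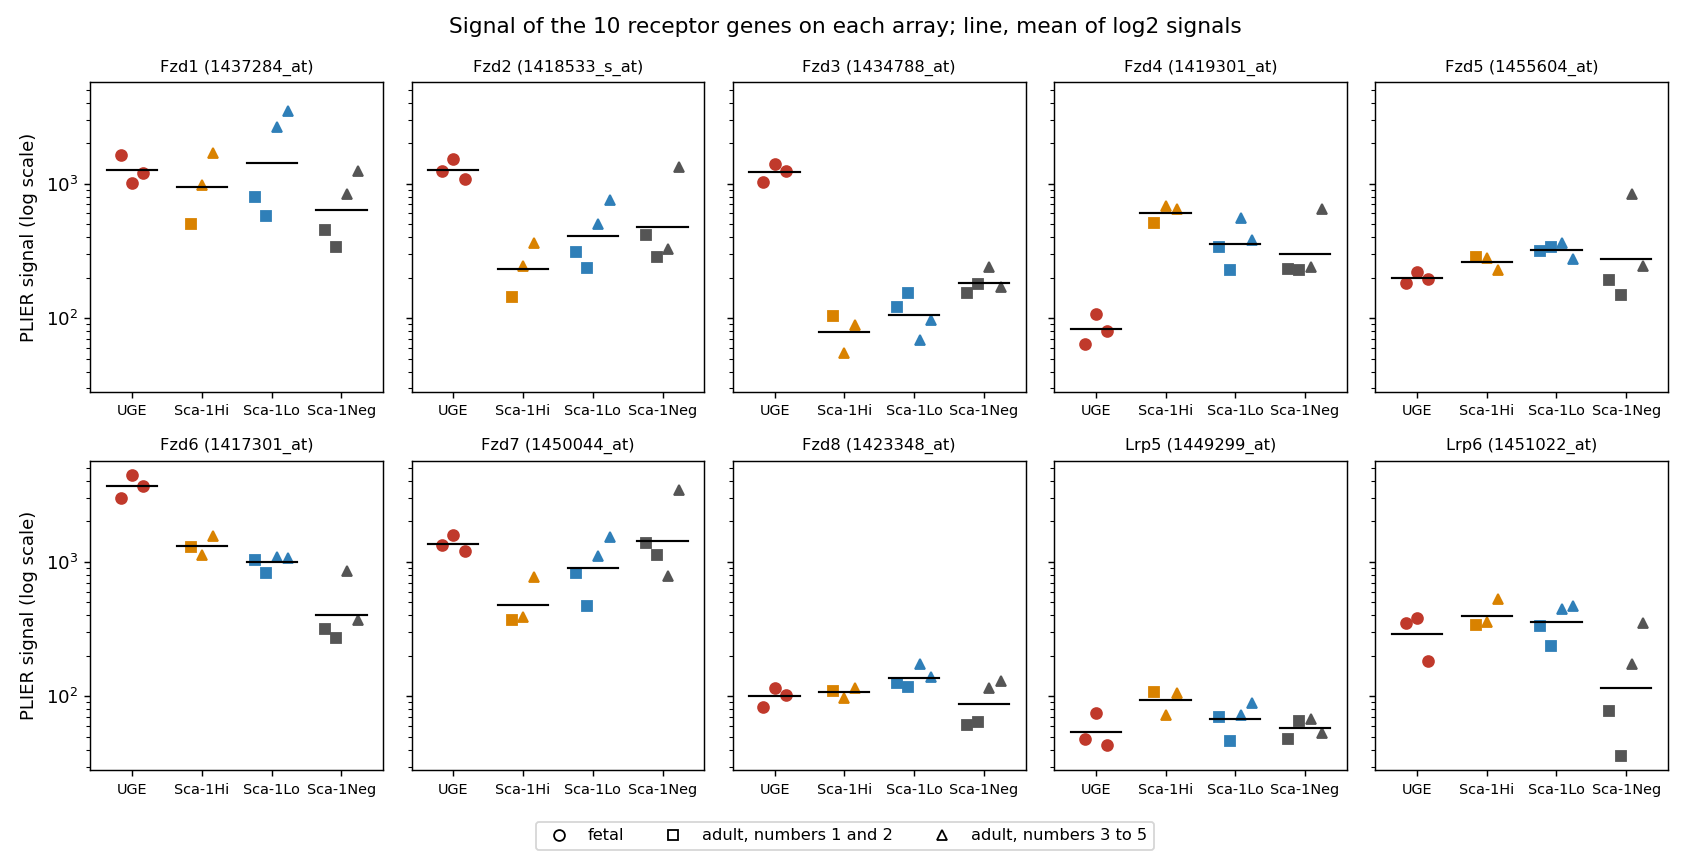
Signal of each receptor gene on its main probe set (log axis, array units) on the 14 arrays, in UGE, Sca-1Hi, Sca-1Lo and Sca-1Neg cells; circles are fetal arrays, squares early and triangles late adult arrays, and lines are means of log2 signals. Fzd3 and Fzd6 are highest on the 3 UGE arrays, Fzd4 is lowest on them, and the Fzd1 triangles lie above the squares in all 3 adult groups.

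In the comparison of UGE with Sca-1Neg cells, Fzd6 and Fzd3 rose and Fzd4 fell, and no other receptor gene was called. A call required an adjusted p-value below 0.05 in limma, with Benjamini-Hochberg adjustment over all tested probe sets, and a log2 difference above 0.81 in size. Thus 3 of 10 receptor genes were called, against 29.2% of the 17134 genes tested (16.3% higher and 12.9% lower), and the share among the receptors is close to that background. The median log2 difference was 0.58 over the receptor genes and 0.07 over all genes. In Sca-1Hi against Sca-1Neg cells 2 receptor genes were called, Fzd6 higher and Fzd3 lower, against 11.3% of all genes (6.11% higher and 5.19% lower), with medians of 0.43 and 0.03. In Sca-1Lo against Sca-1Neg cells none was called by limma, against 2.51% of all genes (1.68% higher and 0.829% lower), with medians of 0.23 and 0.08; 4 receptor genes had an unadjusted p below 0.05 and the methods' t-test also called 0.

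The direct comparisons gave 5 called receptor genes in UGE against Sca-1Hi cells, where Fzd2, Fzd3, Fzd6 and Fzd7 were higher and Fzd4 lower, against 27.8% of all genes (15.8% higher and 12.0% lower). In UGE against Sca-1Lo cells 4 were called, Fzd2, Fzd3 and Fzd6 higher and Fzd4 lower, against 25.6% of all genes (13.4% higher and 12.2% lower). Sca-1Hi against Sca-1Lo cells gave 0 calls in limma, against 0.0992% of all genes (0.0817% higher and 0.0175% lower), and no receptor gene had an unadjusted p below 0.05, while the methods' t-test gave 1 such p and 0 calls after adjustment. The medians over the receptor genes were 0.16, -0.25 and -0.32 in these comparisons, beside -0.000182, -0.04 and -0.04 over all genes. The comparisons share arrays, so their calls are not independent. The labels do not say that the arrays of a group came from separate animals or preparations, so p-values measure the spread between these arrays, and the small number of arrays limits the precision. The study's methods describe sorting labelled duct cells into the Sca-1Hi, Sca-1Lo and Sca-1Neg populations. Arrays of different adult groups may therefore come from the same sort, which this fit does not model. A block on the study's own array number left no receptor call in Sca-1Hi against Sca-1Neg cells, as given below.

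**Figure D2:**
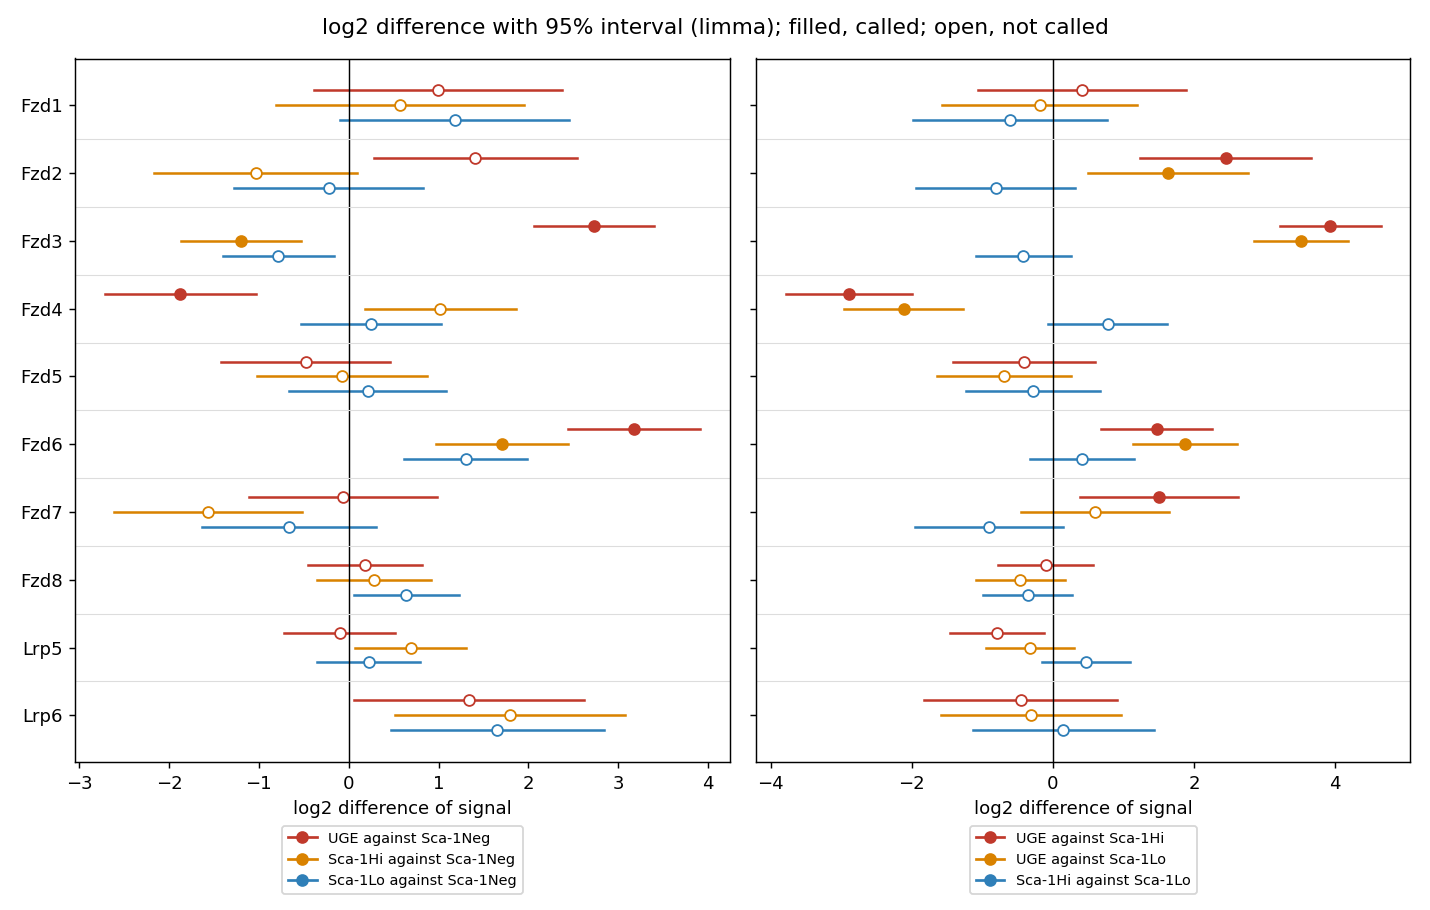
Log2 difference of signal with its 95% interval (horizontal axis) for the 10 receptor genes (rows), for UGE, Sca-1Hi and Sca-1Lo against Sca-1Neg on the left and for the direct comparisons on the right; filled points were called. Fzd3 and Fzd6 reach 2.73 and 3.18 in UGE against Sca-1Neg cells, Fzd4 lies at -1.87, and no Sca-1Hi against Sca-1Lo point is filled.

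Fzd6 and Fzd3 are the Frizzleds best known from planar polarity in the mouse, where Fzd6 orients hair follicles and Fzd3 guides growing axons. Fzd6 (1417301_at) had signals of 2986, 4458 and 3693 on UGE arrays, 1302, 1134 and 1569 on Sca-1Hi arrays, 1035, 830, 1082 and 1068 on Sca-1Lo arrays and 319, 270, 853 and 367 on Sca-1Neg arrays. The UGE arrays did not overlap with any adult array, and the Sca-1Hi arrays all lay above the Sca-1Lo and Sca-1Neg arrays. The group means were 3712 ± 736 in UGE (SD, n = 3), 1335 ± 220 in Sca-1Hi (n = 3), 1004 ± 118 in Sca-1Lo (n = 4) and 452 ± 270 in Sca-1Neg cells (n = 4).

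Fzd6 was 9.04-fold higher in UGE than in Sca-1Neg cells (log2 difference 3.18, SE 0.34, limma adjusted p = 2.04e-05) and 3.27-fold higher in Sca-1Hi than in Sca-1Neg cells (1.71, SE 0.34, adjusted p = 0.00687). It was also higher in UGE than in Sca-1Hi cells (1.47, SE 0.37, adjusted p = 0.00946) and than in Sca-1Lo cells (1.88, SE 0.34, adjusted p = 0.00141). The next neighbours in the order, Sca-1Hi and Sca-1Lo, differed by 0.41 (95% interval -0.33 to 1.14, adjusted p = 0.741). Sca-1Lo against Sca-1Neg stood at 1.30 with an adjusted p of 0.0544. Without Sca-1Neg replicate 3, whose Fzd6 signal of 853 was the highest of its group, that difference was 1.66 and was called (adjusted p = 0.0015). Within the early arrays the differences from Sca-1Neg were 3.64 for UGE, 2.15 for Sca-1Hi (1 array) and 1.66 for Sca-1Lo cells, all called; within the late arrays they were 2.71, 1.25 and 0.94, and only the first was called (adjusted p = 0.0949 and 0.297 for the others). On Sca-1Neg replicate 3 the epithelial markers summed to 24823, against 6236 to 10089 on the other Sca-1Neg arrays, and the basal markers to 7862, against 1663 to 4150.1 on the others. All 4 Sca-1Neg arrays had lower basal sums than any other array, and the part of epithelial and basal content in the Fzd6 values was not tested.

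The other probe sets of Fzd6 did not follow. Signals of 1458904_at stayed between 24.3 and 68.2 and those of 1448662_at between 23.4 and 53.3 on all arrays. Neither was called in UGE against Sca-1Neg cells (-0.66 and 0.56), and 1458904_at was called lower in UGE than in Sca-1Hi cells (-0.88, SE 0.27, limma adjusted p = 0.0279). The mean of the 3 probe sets kept the call in UGE against Sca-1Neg cells but lost it in Sca-1Hi against Sca-1Neg cells and in both comparisons of UGE with the Sca-1-positive cells. The call in Sca-1Hi against Sca-1Neg cells was also lost with the methods' t-test (adjusted p = 0.133) and with the study's own array number as a block over the adult arrays (1.59, adjusted p = 0.0697). The methods' test was adjusted here over all 41031 tested probe sets, not over the narrowed list that the study's methods describe. Its lost calls therefore do not show what the study's own procedure would call. The higher Fzd6 calls rest on 1 probe set of 3.

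Fzd3 (1434788_at) separated the fetal cells most clearly. Its signals were 1023, 1407 and 1231 on UGE arrays, 103, 54.6 and 88.8 on Sca-1Hi arrays, 122, 155, 68.9 and 97.2 on Sca-1Lo arrays and 153, 180, 238 and 169 on Sca-1Neg arrays. No adult array came near the UGE arrays, and all 3 Sca-1Hi arrays lay below every Sca-1Neg array. Fzd3 was 6.63-fold higher in UGE than in Sca-1Neg cells (2.73, SE 0.31, limma adjusted p = 3.16e-05), 15.3-fold higher than in Sca-1Hi cells (3.93, SE 0.33, adjusted p = 3.11e-06) and 11.4-fold higher than in Sca-1Lo cells (3.51, SE 0.31, adjusted p = 3.9e-06). Each of these calls held with any single array left out and under every other setting run.

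In Sca-1Hi cells Fzd3 fell to 82.1 ± 24.9 (SD, n = 3), against 185 ± 36.9 in Sca-1Neg cells (n = 4), a log2 difference of -1.20 (SE 0.31, limma adjusted p = 0.0239). The value was -0.69 within the early arrays (1 Sca-1Hi array, adjusted p = 0.366) and -1.53 within the late arrays (adjusted p = 0.0408). Leaving out Sca-1Hi replicate 2 gave -0.93 (adjusted p = 0.14) and leaving out Sca-1Hi replicate 3 gave -1.28 (adjusted p = 0.056), so the call rests on those arrays. It was also lost with the methods' t-test (adjusted p = 0.116), with only the 2 groups in the fit (adjusted p = 0.0571), with the mean of the probe sets (adjusted p = 0.598) and with the study's own array number as a block (-0.86, adjusted p = 0.247). Sca-1Lo cells, at 111 ± 36.4 (n = 4), lay between (-0.78 from Sca-1Neg, adjusted p = 0.217; Sca-1Hi minus Sca-1Lo -0.42, adjusted p = 0.696).

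Among the other tested probe sets of Fzd3, 1449730_s_at and 1421157_at were called higher in UGE than in each adult group, by 1.21 and 1.57 against Sca-1Neg cells. A further probe set, 1450135_at, had signals of 124, 131 and 122 on UGE arrays against 138, 133, 300.5 and 115 on Sca-1Neg arrays (-0.34, not called). The dim 1438101_at ran against the main probe set in Sca-1Hi cells. Its signals were 20.1, 26.2 and 33.5 on Sca-1Hi arrays, against 12.1, 16.0, 6.90 and 5.65 on Sca-1Neg arrays. With all Sca-1Neg arrays at or below 20, Sca-1Hi cells were at least 1.30-fold and UGE at least 1.64-fold higher on it, where the bound sets the Sca-1Neg arrays at 20 (limma adjusted p = 0.0216 and 0.00297). The lower Fzd3 signal of Sca-1Hi cells was thus called on 1 probe set and a higher one on another, while the difference between UGE and Sca-1Neg cells was called on 4 of 5.

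**Figure D3:**
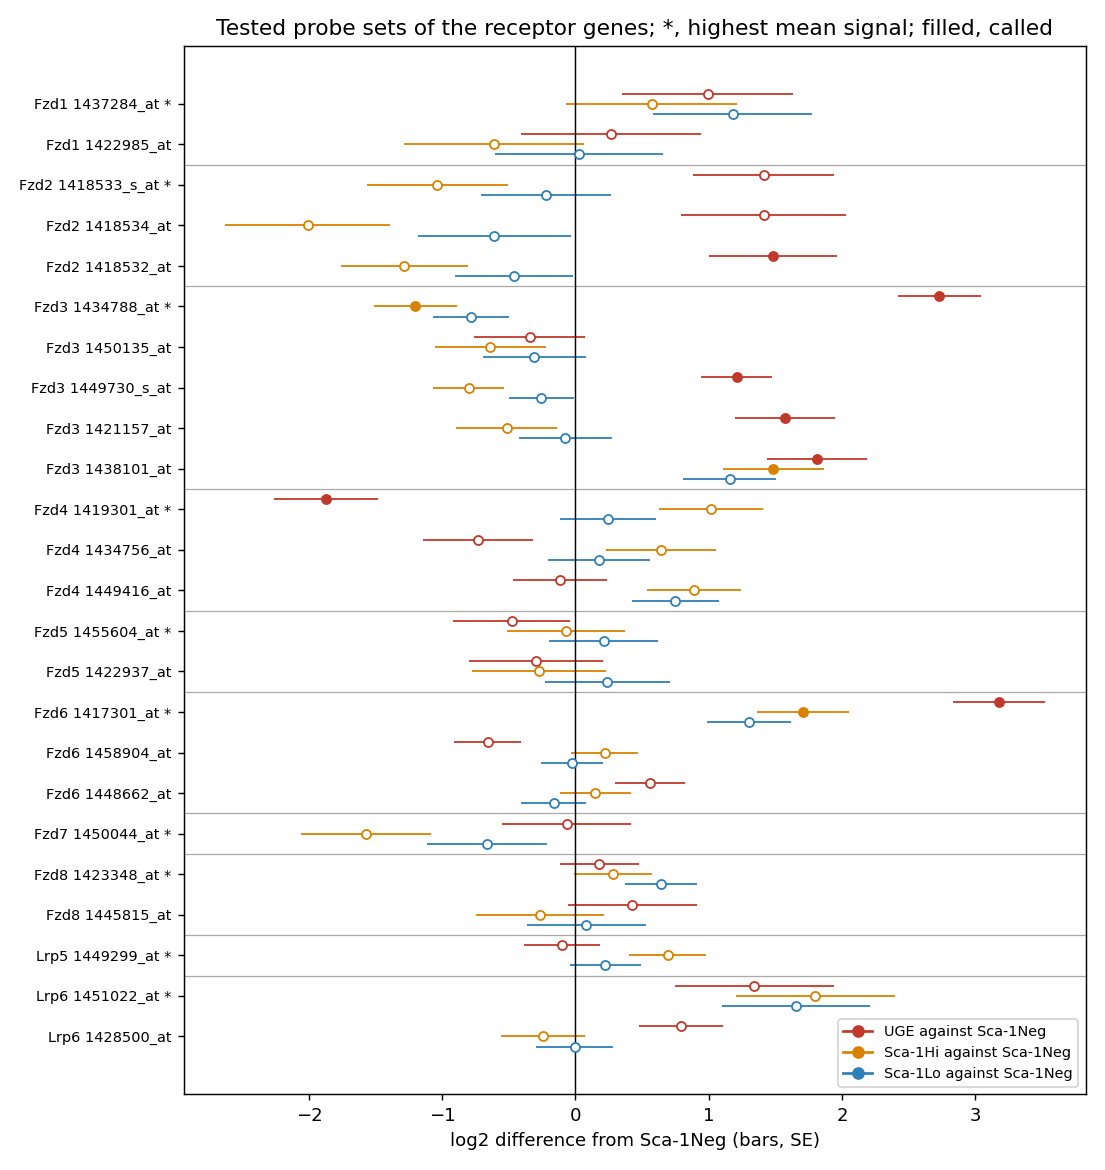
Log2 difference from Sca-1Neg cells with its SE (horizontal axis) for the 24 tested probe sets (rows, grouped by gene; the star marks the highest mean signal) in UGE, Sca-1Hi and Sca-1Lo cells; filled points were called. The 3 Fzd2 probe sets lie between 1.41 and 1.48 in UGE, the Fzd6 differences appear on 1417301_at alone, and the Fzd3 probe sets differ in Sca-1Hi cells, from -1.20 to 1.49. The 1.49 is on the dim 1438101_at, with every Sca-1Neg array at or below 20.

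Fzd1, Fzd2 and Fzd7 form a subfamily of closely related receptors that take part in β-catenin signalling, and in the mouse Fzd7 is a Wnt receptor of intestinal stem cells. Fzd2 (1418533_s_at) had signals of 1238, 1514 and 1090 on UGE arrays, 142, 244 and 364 on Sca-1Hi arrays, 312, 234, 504 and 758 on Sca-1Lo arrays and 417, 287, 327 and 1327 on Sca-1Neg arrays. The UGE arrays lay above all Sca-1Hi and Sca-1Lo arrays, whereas Sca-1Neg replicate 4 reached the UGE range. Fzd2 was 5.45-fold higher in UGE than in Sca-1Hi cells (2.45, SE 0.56, limma adjusted p = 0.00587) and 3.11-fold higher than in Sca-1Lo cells (1.63, SE 0.53, adjusted p = 0.0384).

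Against Sca-1Neg cells the Fzd2 difference of UGE was 1.41 (SE 0.53, limma adjusted p = 0.0622), and without Sca-1Neg replicate 4 it was 1.90 and called (adjusted p = 0.0064). On that array the smooth muscle markers summed to 87744, against 26469 to 38192 on the other Sca-1Neg arrays, and their part in the Fzd2 signal was not tested. Sca-1Hi cells differed from Sca-1Neg cells by -1.04 on the main probe set (adjusted p = 0.214), by -2.01 on 1418534_at (adjusted p = 0.05003) and by -1.28 on 1418532_at (adjusted p = 0.0955), none called, and on 1418532_at all 3 Sca-1Hi arrays lay below all Sca-1Neg arrays. For UGE against Sca-1Neg cells the other Fzd2 probe sets gave 1.41 (1418534_at, not called) and 1.48 (1418532_at, called, adjusted p = 0.0342). Both were called higher in UGE than in Sca-1Hi and in Sca-1Lo cells. The Sca-1Lo call on the main probe set was lost with the methods' t-test (adjusted p = 0.0709), within the late arrays (1.04, adjusted p = 0.23) and with any UGE array, Sca-1Hi replicate 2 or Sca-1Lo replicate 1 or 2 left out, where it lay between 1.37 and 1.74.

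Fzd7 (1450044_at) was lowest in the Sca-1Hi cells. It had signals of 1329, 1593 and 1198 on UGE arrays, 371, 392.1 and 769 on Sca-1Hi arrays, 824, 472, 1111 and 1538 on Sca-1Lo arrays and 1388, 1117, 784 and 3433 on Sca-1Neg arrays. All Sca-1Hi arrays were below all UGE and all Sca-1Neg arrays, the nearest pair being 769 and 784. Fzd7 was 2.83-fold higher in UGE than in Sca-1Hi cells (1.502, SE 0.52, limma adjusted p = 0.0476). The call was lost with no filter on signal (adjusted p = 0.054), with the methods' t-test (adjusted p = 0.0585), with the mean of the probe sets and within the late arrays (1.31, adjusted p = 0.13). It held in only 5 of 14 fits with 1 array left out, over which the difference ran from 1.31 to 1.84. It was lost without any UGE array, Sca-1Hi replicate 1 or 2, Sca-1Lo replicate 1 or 3, or Sca-1Neg replicate 1 or 2. Against Sca-1Neg cells the Sca-1Hi difference was -1.57 (SE 0.49, adjusted p = 0.0512), and -1.68 with the early and late numbers as a block, which was called (adjusted p = 0.0309). It was also called without Sca-1Neg replicate 3 (-1.86, adjusted p = 0.023), Sca-1Lo replicate 2 (-1.57, adjusted p = 0.036) or Sca-1Lo replicate 4 (-1.57, adjusted p = 0.0497). UGE and Sca-1Neg cells differed by -0.07 (95% interval -1.11 to 0.98).

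Fzd1 (1437284_at) had no call among the 6 comparisons. Its signals were 1646, 1011 and 1191 on UGE arrays, 498, 982 and 1700.5 on Sca-1Hi arrays, 798, 572, 2632 and 3498 on Sca-1Lo arrays and 449, 338, 841 and 1252 on Sca-1Neg arrays. Every late adult array was above every early array of its own group. The late minus early log2 difference was 1.38 in Sca-1Hi, 2.17 in Sca-1Lo and 1.398 in Sca-1Neg cells, which is larger than the differences between groups (0.99, 0.57 and 1.18 for UGE, Sca-1Hi and Sca-1Lo against Sca-1Neg). With the early and late numbers as a block, Fzd1 was called higher in Sca-1Lo than in Sca-1Neg cells (1.18, limma adjusted p = 0.0409), as it was with the study's own array number as a block (1.18, adjusted p = 0.0474). Within the early arrays UGE was called higher than Sca-1Neg (1.69, adjusted p = 0.00473) and within the late arrays UGE was called lower than Sca-1Lo (-1.27, adjusted p = 0.0408). The UGE and Sca-1Lo difference changed sign between the early arrays (0.90) and the late arrays. A second probe set of Fzd1, 1422985_at, stayed between 18.1 and 102 and was lower on late than on early arrays in all 3 adult groups, at 18.9 and 25.3 against 43.7 in Sca-1Hi, 25.9 and 36.05 against 38.1 and 94.7 in Sca-1Lo, and 18.1 and 18.2 against 92.6 and 102 in Sca-1Neg cells.

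The fibroblast marker sums, like Fzd1, were higher on late than on early arrays of each adult group. On average the basal, endothelial and smooth muscle sums were higher there too, the last by little in Sca-1Lo cells, and the leukocyte sums lower. The 2 Sca-1Lo arrays with Fzd1 signals of 2632 and 3498 had fibroblast sums of 43292 and 54218, against 13218 and 7688 on the arrays with 798 and 572. UGE arrays had Fzd1 signals of 1011 to 1646 at fibroblast sums of 5673 to 16336. For Fzd7, the highest signal of the series (3433) was on Sca-1Neg replicate 4, the array with the highest smooth muscle sum, and the Sca-1Hi arrays with Fzd7 signals of 371 and 392.1 had smooth muscle sums of 8049 and 8502. On UGE arrays the smooth muscle sums were 1417 to 3547 at Fzd7 signals of 1198 to 1593. The parts of fibroblast, basal, endothelial, leukocyte and smooth muscle content in the Fzd1 and Fzd7 values were not tested.

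**Figure D4:**
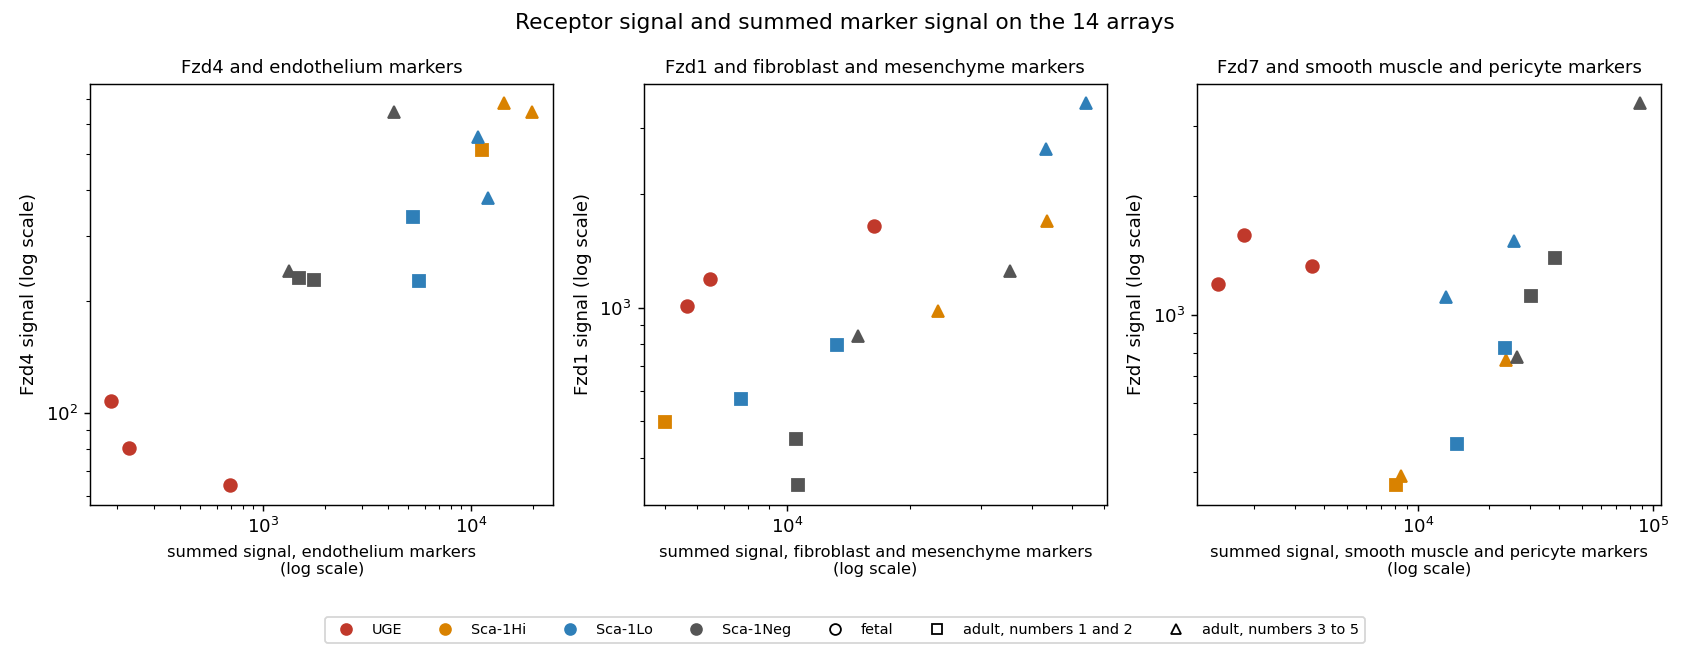
Signal of Fzd4, Fzd1 and Fzd7 on each of the 14 arrays (vertical, log axis) against the summed signal of endothelial, fibroblast and smooth muscle markers (horizontal, log axis); colours are groups and shapes as for the plot of signals by array. The 3 pairs were chosen after the values were seen. UGE arrays have Fzd7 signals of 1198 to 1593 at smooth muscle sums of at most 3547. The lowest Fzd4 signals lie at the lowest endothelial sums, while Sca-1Neg replicate 4 has 646 at 4260 and Sca-1Lo arrays 227 to 554 at 5275 to 12156.

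Fzd4 is the receptor of Norrin as well as of Wnt proteins and, with Lrp5 and Tspan12, is needed for growth of the retinal vessels in the mouse. Fzd4 (1419301_at) had signals of 63.97, 108 and 80.4 on UGE arrays, 512, 685 and 646 on Sca-1Hi arrays, 338, 227, 554 and 380 on Sca-1Lo arrays and 231, 228, 241 and 646 on Sca-1Neg arrays. The 3 UGE arrays were below every adult array. Fzd4 was lower in UGE than in Sca-1Neg cells by -1.87 on the log2 scale (SE 0.39, limma adjusted p = 0.00314), than in Sca-1Hi cells by -2.89 (SE 0.42, adjusted p = 0.000232) and than in Sca-1Lo cells by -2.12 (SE 0.39, adjusted p = 0.00155). The calls against Sca-1Neg and Sca-1Lo cells held within the early and within the late arrays, that against Sca-1Hi cells within the late arrays (the early value of -2.64 rests on 1 Sca-1Hi array), and all 3 held with any 1 array left out.

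Sca-1Hi cells averaged 614 ± 90.8 (SD, n = 3), against 337 ± 206 in Sca-1Neg cells (n = 4), a log2 difference of 1.02 (SE 0.39, limma adjusted p = 0.105). Without Sca-1Neg replicate 4, the array at 646, the difference was 1.38 and called (adjusted p = 0.019). The endothelial marker sum of that array, 4260, was the highest of the Sca-1Neg arrays, the others of which had 1335 to 1761. Its fibroblast and smooth muscle sums, 35236 and 87744, were also the highest of its group. UGE arrays, with the lowest Fzd4 signals, had the lowest endothelial sums of the series (187 to 692), with Pecam1 and Tie1 at or below 20 on all 3, and the Sca-1Hi arrays had sums of 11372 to 19782. Pecam1 was also at or below 20 on every Sca-1Neg array, replicate 4 included. The Sca-1Lo arrays had Fzd4 signals of 227 to 554 at endothelial sums of 5275 to 12156, below the 646 of Sca-1Neg replicate 4 at 4260. The parts of endothelial, fibroblast and smooth muscle content in the Fzd4 values were not tested. A second Fzd4 probe set, 1434756_at, was called lower in UGE than in Sca-1Hi cells (-1.37, SE 0.44, adjusted p = 0.0342) but not than in Sca-1Neg cells (-0.73, adjusted p = 0.209), and 1449416_at, between 10.98 and 42.8 on all arrays, gave no call.

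RefSeq promoters of build GRCm38.p6 were at hand for 4 of the 10 receptor genes, Fzd1, Fzd4, Fzd5 and Fzd7. The 250 bases before the start of Fzd4, which fell in UGE, and of Fzd1 and Fzd7, which differed between the early and late arrays or in Sca-1Hi cells, are shown 5′ to 3′ on the gene's strand with capitals at each match to a motif on either strand. The motif CCAAT is the core of the element that NF-Y binds. The motif CTTTGA and its relative with a final T, spelled CTTTGT, are forms of the element that Tcf factors of the Wnt pathway bind. They lie at chr7:89404116-89404365 (plus strand), chr5:4758217-4758466 (minus strand) and chr1:59481897-59482146 (plus strand).
Fzd4: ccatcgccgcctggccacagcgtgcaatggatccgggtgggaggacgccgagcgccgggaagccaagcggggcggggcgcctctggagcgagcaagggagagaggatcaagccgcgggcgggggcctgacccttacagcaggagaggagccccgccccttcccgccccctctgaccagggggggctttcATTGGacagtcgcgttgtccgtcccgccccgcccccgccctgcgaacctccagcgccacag
Fzd1: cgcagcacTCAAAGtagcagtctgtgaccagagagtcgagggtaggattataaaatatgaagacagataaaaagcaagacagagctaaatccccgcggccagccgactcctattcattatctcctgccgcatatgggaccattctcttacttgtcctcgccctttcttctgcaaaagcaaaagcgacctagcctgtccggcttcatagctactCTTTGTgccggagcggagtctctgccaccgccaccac
Fzd7: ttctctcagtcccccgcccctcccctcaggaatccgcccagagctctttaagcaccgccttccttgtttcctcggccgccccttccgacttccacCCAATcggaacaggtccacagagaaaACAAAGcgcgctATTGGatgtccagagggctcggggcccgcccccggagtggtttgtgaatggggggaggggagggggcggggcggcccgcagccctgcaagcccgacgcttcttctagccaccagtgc
No match overlapped another in these windows. The Fzd4 window held 1 CCAAT match, which begins 61 bases before the start, and no match to the Tcf letters. Fzd7 held 2 CCAAT matches, beginning 155 and 117 bases before the start, and 1 match to CTTTGT between them at 129 bases. Fzd1 held no CCAAT match but 1 match to CTTTGA at 242 bases and 1 to CTTTGT at 37 bases. Of all 32851 promoters in the table, 33.8% held CCAAT, 13.8% CTTTGA and 16.5% CTTTGT within the same 250 bases. The windows were 72.8% (Fzd4), 51.2% (Fzd1) and 65.2% (Fzd7) G and C, beside a median of 52.4% over all promoters.

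Fzd5 and Fzd8 are another closely related pair of receptors that signal through β-catenin, and Fzd5 is needed for yolk sac vessels in the mouse. Neither was called in any comparison. Fzd5 (1455604_at) had signals of 182, 219 and 195 on UGE arrays, 285, 280 and 229 on Sca-1Hi arrays, 313, 337, 361 and 275 on Sca-1Lo arrays and 193, 149, 831 and 244 on Sca-1Neg arrays. Each UGE array was below each Sca-1Hi and Sca-1Lo array, and the spread was widest in Sca-1Neg cells, where replicate 3, the array with the highest epithelial marker sum of its group, stood at 831. The 95% interval of the UGE difference from Sca-1Neg cells ran from -1.43 to 0.47. Fzd8 (1423348_at) had signals of 83.0, 116 and 103 on UGE arrays, 110, 98.0 and 115 on Sca-1Hi arrays, 125, 117, 174 and 140 on Sca-1Lo arrays and 61.5, 64.5, 116 and 131 on Sca-1Neg arrays. The UGE and Sca-1Hi arrays all lay below the Sca-1Lo arrays, by little (at most 116 against at least 117), and the Sca-1Neg arrays overlapped with all groups. The Fzd8 difference was 0.64 in Sca-1Lo against Sca-1Neg cells (SE 0.27, limma adjusted p = 0.306). The other Fzd5 probe set, 1422937_at, was above 20 on 3 arrays and gave no call. The other Fzd8 probe set, 1445815_at, lay between 22.7 and 86.0 and gave no call. On it UGE minus Sca-1Hi was 0.69, against -0.10 on the main probe set.

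The co-receptors gave no call on their main probe sets. Lrp6 (1451022_at) had signals of 349, 381 and 184 on UGE arrays, 339, 355 and 526 on Sca-1Hi arrays, 334, 238, 449 and 472 on Sca-1Lo arrays and 77.9, 36.05, 174 and 352 on Sca-1Neg arrays. Of the Sca-1Neg arrays, the early 2 and replicate 3 lay below every array of the other groups, and replicate 4 lay among them. The differences from Sca-1Neg were 1.34 for UGE (SE 0.60, limma adjusted p = 0.112), 1.80 for Sca-1Hi (SE 0.60, adjusted p = 0.0649) and 1.65 for Sca-1Lo (SE 0.55, adjusted p = 0.166). Without Sca-1Neg replicate 4 they were 1.88, 2.34 and 2.19 and all called (adjusted p = 0.015, 0.014 and 0.044). Within the early arrays they were 2.45, 2.68 (1 Sca-1Hi array) and 2.41, also called, and within the late arrays 0.23, 0.81 and 0.90, none called. With the early and late numbers as a block the Sca-1Hi difference was 1.60 (adjusted p = 0.0325).

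A second probe set of Lrp6, 1428500_at, did not share this pattern. Its signals were 350, 389 and 407 on UGE arrays, 222, 124 and 235 on Sca-1Hi arrays, 231, 179, 209 and 269 on Sca-1Lo arrays and 169, 162, 242 and 357 on Sca-1Neg arrays. On it UGE was called higher than Sca-1Hi (1.03, SE 0.34, limma adjusted p = 0.036), whereas the main probe set gave -0.46. The Sca-1Hi difference from Sca-1Neg was -0.24 and that of Sca-1Lo -0.01. Lrp5 (1449299_at, the single probe set of the gene) had signals of 48.2, 75.8 and 43.7 on UGE arrays, 108, 73.0 and 106 on Sca-1Hi arrays, 70.0, 46.4, 73.2 and 89.4 on Sca-1Lo arrays and 47.9, 66.1, 67.6 and 53.6 on Sca-1Neg arrays. The Sca-1Hi arrays all lay above the Sca-1Neg arrays, with a difference of 0.69 (SE 0.29, adjusted p = 0.132). UGE minus Sca-1Hi was -0.79 (SE 0.31, adjusted p = 0.0731), and -1.03 without UGE replicate 2, when it was called (adjusted p = 0.042).

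Across all 6 comparisons, the 14 tested probe sets that were not the main one of their gene gave 4 calls in UGE against Sca-1Neg, 1 in Sca-1Hi against Sca-1Neg, 7 in UGE against Sca-1Hi and 4 in UGE against Sca-1Lo cells, beside 25.8%, 11.9%, 25.4% and 21.9% of all 41031 tested probe sets. They gave 0 calls by limma in Sca-1Lo against Sca-1Neg and in Sca-1Hi against Sca-1Lo cells (1.90% and 0.0658% of all probe sets).

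The receptors' partners were read from 5 lists. Each gene was read on its main probe set, and other probe sets are given for Wnt7a alone. Of 18 Wnt ligands tested, 6 were higher and 2 lower in UGE than in Sca-1Neg cells, beside 16.3% and 12.9% of all genes, with a median of 0.51. The lower ligands, named after their values were seen, were Wnt5b (-2.29, limma adjusted p = 0.00313) and, on its main probe set 1447647_at alone, Wnt7a (-1.58, adjusted p = 0.00982). The other tested probe set of Wnt7a, 1423367_at, was called in the opposite direction (5.62, SE 1.57, adjusted p = 0.0172), with signals of 5736, 21.1 and 19316 on UGE arrays against 20.8 to 36.8 on Sca-1Neg arrays. The direction for Wnt7a is therefore not settled by these probe sets. Wnt10a had a signal of 360 ± 121 in UGE (SD, n = 3), 87.0 ± 29.8 in Sca-1Hi (n = 3) and 36.5 ± 13.7 in Sca-1Lo (n = 4), while it stayed at or below 20 on all Sca-1Neg arrays. It was therefore at least 17.4-fold higher in UGE and at least 4.15-fold higher in Sca-1Hi than in Sca-1Neg cells (limma adjusted p = 6.79e-07 and 0.000268). Wnt6 averaged 1967 ± 292 in UGE and 144 ± 41.6 in Sca-1Neg cells (3.81, adjusted p = 6.12e-06). Wnt4 was higher in UGE and in Sca-1Hi than in Sca-1Neg cells (2.77 and 2.46, adjusted p = 0.00108 and 0.00694), and Wnt10a and Wnt4 were the 2 ligands called in Sca-1Hi against Sca-1Neg cells. Of all genes, 6.11% were called higher and 5.19% lower in Sca-1Hi against Sca-1Neg cells. Wnt10a was the 1 ligand called in Sca-1Lo against Sca-1Neg cells (1.89, adjusted p = 0.0134). With the Sca-1Neg arrays set at 20, Wnt10a was at least 1.72-fold higher in Sca-1Lo cells. This bound is smaller than the difference that a call required, so the size of the call rests on Sca-1Neg signals at or below 20.

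Among 10 regulators of the receptors, 4 were higher and 2 lower in UGE than in Sca-1Neg cells, again beside 16.3% and 12.9% of all genes, with a median of 0.16. Rnf43, a ubiquitin ligase that removes Frizzleds from the cell surface, averaged 620 ± 204 in UGE and 133 ± 80.3 in Sca-1Neg cells (2.38, limma adjusted p = 0.00216). It was also higher in UGE than in Sca-1Hi (2.38) and Sca-1Lo cells (2.01). The related ligase Znrf3 was higher in UGE than in Sca-1Hi (1.99, adjusted p = 0.000782) and Sca-1Lo cells (1.30, adjusted p = 0.00902). The genes lower in UGE were Adgra2, which acts with Reck in Wnt7 signalling to vessels (59.9 ± 49.5 in UGE and 557 ± 618 in Sca-1Neg cells, adjusted p = 0.0253), and Lgr6, a receptor of R-spondins (-1.88, adjusted p = 0.0326). Ndp, which encodes the Fzd4 ligand Norrin, was the 1 regulator called in Sca-1Hi against Sca-1Neg cells, beside 6.11% of all genes higher and 5.19% lower. It stayed at or below 20 on the Sca-1Hi arrays and was at least 2.26-fold lower there (adjusted p = 0.0146).

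Of 13 other receptors and planar polarity partners, 5 were higher and 0 lower in UGE than in Sca-1Neg cells by limma, beside 16.3% and 12.9% of all genes, with a median of 0.89, and 1 lower member had an unadjusted p below 0.05. Celsr1 and Vangl2 are core components of the planar polarity pathway in which Fzd3 and Fzd6 act. Celsr1 averaged 1064 ± 468 in UGE, 231 ± 16.5 in Sca-1Hi and 38.7 ± 5.44 in Sca-1Neg cells, with differences from Sca-1Neg of 4.68 and 2.58 (adjusted p = 1.58e-06 and 0.00101). Vangl2 was higher in UGE than in each adult group, at 552 ± 139 in UGE and 94.6 ± 33.9 in Sca-1Neg cells (2.60, adjusted p = 0.000118). Ror2, a receptor of Wnt5a, was higher in UGE than in Sca-1Neg cells (2.68, adjusted p = 0.00188). Prickle2 was lower in Sca-1Hi than in Sca-1Neg cells (-1.72, adjusted p = 0.0319).

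Of 15 relay genes inside the cell, 7 were higher and 0 lower in UGE than in Sca-1Neg cells by limma, beside 16.3% and 12.9% of all genes, with a median of 1.04, and no lower member had an unadjusted p below 0.05. They included the kinases Gsk3b (1.70, adjusted p = 0.00676) and Csnk1g1, which phosphorylates Lrp6 (1.41, adjusted p = 0.00155), and β-catenin, Ctnnb1 (1.08, adjusted p = 0.015). Limma called none in Sca-1Hi or Sca-1Lo against Sca-1Neg cells, beside 11.3% and 2.51% of all genes. Of the relay genes, 3 and 0 had an unadjusted p below 0.05 there. Of 8 feedback and target genes, 0 were higher and 2 lower in UGE than in Sca-1Neg cells by limma, beside 16.3% and 12.9% of all genes, with a median of -0.43, and 1 higher member had an unadjusted p below 0.05. The lower genes were the surface protein Cd44, at 137 ± 55.8 in UGE and 633 ± 102 in Sca-1Neg cells (-2.29, adjusted p = 0.000655), and Myc (-1.17, adjusted p = 0.0359). Both were also lower in UGE than in Sca-1Hi and Sca-1Lo cells. No other feedback or target gene of the list was called in any of these comparisons. In UGE against Sca-1Hi cells the ligands gave 6 higher calls, the regulators 4, the other receptors and polarity partners 4 with 1 lower (Fzd9), and the relay genes 4 with 1 lower (Dvl1), beside 15.8% of all genes higher and 12.0% lower. In UGE against Sca-1Lo cells they gave 6, 3, 3 with 1 lower (Fzd9) and 4 higher calls, beside 13.4% higher and 12.2% lower. No list had a call in Sca-1Hi against Sca-1Lo cells by limma, where 4 ligands, 2 regulators and 1 polarity partner had an unadjusted p below 0.05. The medians over all genes in these comparisons are those given with the receptor counts.

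For Fzd6 and Fzd3 the genes with the most similar profile were sought, as the smallest root mean square difference over the 14 arrays of log2 signals set relative to the Sca-1Neg mean. The 5 nearest to Fzd6 were Cthrc1 (0.29), Sdk1 (0.29), Lad1 (0.33), Etl4 (0.42) and Zbtb8b (0.43), where the median over all other genes was 1.86. Cthrc1 had differences from Sca-1Neg of 2.99 in UGE, 1.76 in Sca-1Hi and 0.99 in Sca-1Lo cells. The 5 nearest to Fzd3 were Ckap2 (0.33), Knstrn (0.34), Tfrc (0.37), Pbk (0.37) and H2ax (0.39), with a median of 1.62 over all other genes. Ckap2 stood at 2.48 in UGE, -0.93 in Sca-1Hi and -0.75 in Sca-1Lo cells relative to Sca-1Neg.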

How the data were processed

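RNA of UGE, Sca-1Hi, Sca-1Lo and Sca-1Neg cells was amplified, labelled and hybridised to Affymetrix MOE430 2.0 arrays, which carry 45101 probe sets. The deposited table holds 1 linear intensity per probe set and array, summarised by the authors with PLIER in ArrayAssist; MAS5 detection calls that they used for filtering were not used here. Amplification from small amounts favours 3′ ends, which can lower the signal of probe sets far from them. Groups were taken from the sample labels. Genes came from the platform annotation, in which 34958 probe sets name 1 gene, 932 several and 9211 none.

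The log2 of the deposited intensity, with nothing added, was fitted with limma 3.58.1 in R 4.3.3, with 1 mean per group over 14 arrays. The fit held 41031 probe sets above 20 on at least 1 array, without array controls; 17134 genes were tested on their probe set of highest mean log2 signal. Calls needed a Benjamini-Hochberg adjusted p below 0.05 over these probe sets and a log2 difference over 0.81 in size. The fit was tested on simulated data. Array medians of the signal were 64.3 to 81.0. Named genes were all 10 receptors, up to 3 called genes of each list per comparison with the largest difference (here a part of them) and the 5 nearest profiles of Fzd6 and of the receptor with the largest difference. The receptors, lists and tests were chosen with earlier results of these data known. Of the planned marker lists, Sca-1 itself is not analysed here. Promoters came from RefSeq.

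Equal replicate numbers did not pair arrays: correlations of deviations from group means in 19 same-numbered pairs, pairs with UGE arrays included, ran from -0.451 to 0.558, with 11 over 0.1. By the study's own array numbers, 7 of 8 pairs of adult arrays were over 0.1 and the lowest was -0.0566. Adult pairs that were both early or both late but had different numbers ran from -0.09 to 0.695. Sca-1Hi replicate 1 reached 0.695 with Sca-1Lo replicate 2, of another number, and 0.505 with Sca-1Lo replicate 1, of its own number. These values therefore do not separate pairing by number from the early and late split. Alternatives were other filters, normalizations, probe set summaries, tests, blocks, array weights and single arrays left out. The test named after the methods was adjusted over all 41031 probe sets. The study's methods describe narrowing the transcripts by signal, variation and further tests before that comparison. Calls lost under this version, for any receptor, therefore do not show that the study's own procedure loses them.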

Additional observations from a re-analysis of the deposited data

Results flagged for a closer look

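In groups of 4 arrays, the gap between the farthest array and the next was set against the range of the group with Dixon's 95% critical value, over 48 groups of receptor probe sets. Chance flags about 1 in 20 groups, and 5 were flagged.

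Of these, 3 are high signals on Sca-1Neg replicate 4, namely 751.9 for Fzd2 on 1418532_at (others 227.1 to 261.4), 646 for Fzd4 on 1419301_at (others 227.9 to 241.2) and 586.8 for Fzd4 on 1434756_at (others 182.2 to 188.7). This array also had the highest endothelial, fibroblast and smooth muscle marker sums of its group, 4260, 35236 and 87744, and their part in the receptor signals was not tested. Without it, Fzd2 in UGE and Fzd4 in Sca-1Hi cells were called against Sca-1Neg cells, as given above.

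Fzd6 on 1417301_at was 829.9 on Sca-1Lo replicate 2, below the other Sca-1Lo arrays at 1035 to 1082. The dim Fzd6 probe set 1458904_at was 49.93 on Sca-1Neg replicate 1, above the others at 40.97 to 42.38.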

How the results depend on the processing

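The number of arrays and the spread between Sca-1Neg arrays limit the comparisons of adult cells. Leaving out 1 array at a time gave 3 to 5 called receptor genes in UGE against Sca-1Neg, 1 to 4 in Sca-1Hi against Sca-1Neg, 0 to 1 in Sca-1Lo against Sca-1Neg, 4 to 5 in UGE against Sca-1Hi, 3 to 4 in UGE against Sca-1Lo and 0 in Sca-1Hi against Sca-1Lo cells. In the same order, the share of all genes called ran from 20.4% to 33.1%, 4.55% to 14.5%, 0.858% to 7.57%, 19.7% to 30.3%, 17.1% to 28.0% and 0.0175% to 0.187%. The calls of Fzd3 and Fzd6 in UGE against Sca-1Neg held in every alternative run, and that of Fzd4 in all but the methods' t-test.

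In UGE against Sca-1Neg cells, 6 receptor genes were called instead of 3 with the replicate number as a block, with array weights, or with early adult arrays alone, each time Fzd1, Fzd2 and Lrp6 in addition. These settings called 33.2%, 47.9% and 44.7% of all genes, beside 29.2% in the fit reported. The replicate block mixes early and late arrays, since Sca-1Hi replicate 2 is late and replicate 2 of Sca-1Lo and of Sca-1Neg is early. In Sca-1Hi against Sca-1Neg cells, in place of 2 (with 11.3% of all genes called), array weights gave 7 (27.4%). Quantile normalization gave 5 (15.0%), centring on the 75th percentile 5 (12.9%) and the early and late numbers as a block 4 (15.5%). Only the 2 groups compared (6.85%), the mean of a gene's probe sets (10.6%) and the late arrays alone (8.17%) gave 1. The methods' t-test (0.835%) and the study's own array number as a block (3.13%) gave 0. In Sca-1Lo against Sca-1Neg cells, in place of 0 (with 2.51% of all genes called), array weights gave 4 (17.1%). The early and late block (4.96%) and the early arrays alone (4.84%) gave 2. The replicate block (3.52%), 16 added before log2 (2.54%), quantile normalization (3.79%) and centring on the 75th percentile (2.95%) gave 1, which was Fzd6. The study's own array number as a block (3.44%) gave 1, which was Fzd1. That block, over the adult arrays, was chosen after seeing the data, and Sca-1Hi replicate 2, alone with its number, adds nothing to it. In UGE against Sca-1Hi cells the mean of a gene's probe sets gave 3 in place of 5, with 25.3% of all genes called in place of 27.8%. The cause of these changes was not tested. The replicate block changed no other call count by over 1.5 times.

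Of the 60 receptor differences, 15 turned direction under at least 1 alternative. None of these was called in the fit reported or under the alternatives that turned it, though Fzd1 in UGE against Sca-1Lo was called in its first direction within the late arrays (-1.27). The largest was 0.57 in size, and they include Fzd5 in Sca-1Hi against Sca-1Neg (-0.83 to 0.75 over all alternatives), Fzd2 and Fzd5 in Sca-1Lo against Sca-1Neg (-0.52 to 0.27 and -0.52 to 0.94) and Fzd8 in Sca-1Hi against Sca-1Neg (-0.22 to 0.80). Fzd1 in Sca-1Hi against Sca-1Neg was -0.019 and Lrp6 in UGE against Sca-1Hi 0.29 with the mean of the gene's probe sets. For UGE against Sca-1Lo, Fzd1 was 0.19 with the replicate block, 0.026 with the mean of its probe sets, 0.90 with early arrays alone, 0.10 without Sca-1Lo replicate 3 and 0.24 without Sca-1Lo replicate 4, with a range of -0.63 to 0.24 over single arrays left out. Lrp6 was 0.023 with the replicate block, 0.24 with the mean of its probe sets, 0.042 with early arrays alone and 0.017 without UGE replicate 3, with a range of -0.51 to 0.017.

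Centring on the 75th percentile moved the median of all probe sets by -0.20 in UGE against Sca-1Neg, -0.14 in UGE against Sca-1Hi and -0.18 in UGE against Sca-1Lo cells, and quantile normalization by -0.13 in Sca-1Hi against Sca-1Neg and 0.10 in UGE against Sca-1Hi cells. Among all genes called in UGE against Sca-1Neg, 2792 were higher and 2203 lower, and 2313 and 2729 with that centring; in Sca-1Hi against Sca-1Lo 14 and 3, and 22 and 9 with quantile normalization. Of the receptor differences, Fzd8 in UGE against Sca-1Neg alone turned sign with scaling (0.18, and -0.021 with the centring).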
